A study of Homo sapiens with 3 samples.

Results

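The genes examined were 6 transcription factor genes that mark B-cell identity, EBF1, POU2AF1, POU2F2, SPIB, IKZF1 and IKZF3. Each was taken as its gene body on hg19 plus 20 kb on both sides. Every interval that overlapped such a window was a member, whatever its strength. The windows held 87 of the 215598 CREBBP peaks and 41 of the 18263 H3K27ac regions of the 2 deposited lists. The data come from ChIP-seq of SC1, an established human lymphoma cell line given in the labels as diffuse large B-cell lymphoma (DLBCL). CREBBP_ChIP was 1 sample in which CREBBP, an acetyltransferase of histones, was precipitated. H3K27ac_ChIP was 1 sample precipitated for acetylated lysine 27 of histone H3, found at active promoters and enhancers. An input sample without antibody was not analysed here. The labels give no treatment or genotype for either ChIP, while DMSO and rep2 stand in the peak names without explanation. There were no replicates, so no value has a replicate error and no test across samples was possible.

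These proteins build and maintain the B-cell programme. EBF1 commits precursors to the B lineage. POU2F2 (OCT2) binds the octamer of immunoglobulin promoters, and POU2AF1 (OCA-B) is the coactivator that joins it there. SPIB is an ETS factor related to PU.1. IKZF1 (Ikaros) and IKZF3 (Aiolos) are zinc-finger factors of lymphocytes. CREBBP acetylates H3K27, so places that carry both are candidates for active regulatory DNA. RNA was not measured in these lists, so whether these genes were active in SC1 could be judged only from the mark.

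The start of each gene is where the mark and the acetyltransferase can be set side by side, so the sequences just before the starts are shown for the genes that the RefSeq promoter table (GRCh38.p14) holds. It matched 4 of the 6 genes, with 3 promoters for IKZF1, of which the first is shown. Each run is the 250 bases before the start, 5′ to 3′ along the gene. Capitals mark TGGGAA or its reverse complement, a core bound by Ikaros-family factors. These positions belong to GRCh38 and were not carried to the hg19 peaks. The RefSeq starts may therefore differ from the gene-body starts used for the peaks.

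EBF1, chr5:159097957-159098206, minus strand: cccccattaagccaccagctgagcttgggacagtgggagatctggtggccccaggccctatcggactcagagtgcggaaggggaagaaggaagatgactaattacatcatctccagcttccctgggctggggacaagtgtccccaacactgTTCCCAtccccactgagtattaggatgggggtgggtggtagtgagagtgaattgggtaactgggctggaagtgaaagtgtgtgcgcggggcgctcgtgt

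POU2F2, chr19:42132447-42132696, minus strand: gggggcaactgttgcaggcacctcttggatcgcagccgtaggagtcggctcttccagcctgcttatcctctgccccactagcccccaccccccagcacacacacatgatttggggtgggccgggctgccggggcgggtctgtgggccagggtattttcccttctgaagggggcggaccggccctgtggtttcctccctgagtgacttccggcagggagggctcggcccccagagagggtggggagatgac

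SPIB, chr19:50418688-50418937, plus strand: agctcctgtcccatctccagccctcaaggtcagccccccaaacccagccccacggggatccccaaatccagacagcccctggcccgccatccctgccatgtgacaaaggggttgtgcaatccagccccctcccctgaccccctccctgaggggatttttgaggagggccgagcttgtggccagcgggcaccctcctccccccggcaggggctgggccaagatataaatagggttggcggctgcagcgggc

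IKZF1, chr7:50304466-50304715, plus strand: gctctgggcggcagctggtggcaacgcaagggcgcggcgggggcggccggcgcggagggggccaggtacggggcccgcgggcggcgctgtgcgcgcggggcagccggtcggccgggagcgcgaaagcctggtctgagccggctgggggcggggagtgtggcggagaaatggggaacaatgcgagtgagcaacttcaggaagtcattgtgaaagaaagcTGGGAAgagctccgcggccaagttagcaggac

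The promoters differed in composition. The first IKZF1 promoter, over its 300 bases (250 before and 50 after the start), had a GC content of 71.0% and 35 CpG dinucleotides. SPIB had 67.0% and 11, POU2F2 66.7% and 12, and EBF1 57.0% and 8. Over all 35116 promoters of the table the medians were 58.7% and 14. IKZF1 was therefore the only one of these 4 above the median in CpG, and the other two IKZF1 promoters had 3 and 0. The Ikaros core began 32 bases before the start in IKZF1 and 99 bases before it, on the reverse strand, in EBF1. Searched on both strands, it was present in 2 of the 6 promoters of the set and in 24.0% of all promoters. The octamer ATGCAAAT (1.77% of all promoters), the palindromic EBF1 motif (1.21%) and the SPIB-type ETS core GAGGAAGT (2.59%) were not found in any of the 6. None of these motifs contains another. A match of letters is a description, and its absence says only that these letters are not in these windows.

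H3K27ac was dense at all 6 genes. It covered 152 of the 965 kb in the windows, 15.8%, against 1.12% of all chromosomes, and there were 42.5 regions per Mb against 6.02. Each window lay well above the chromosomes as a whole, from 11.8% covered at IKZF1 and 14.3% at EBF1 to 18.0% at POU2F2, 18.5% at POU2AF1, 19.1% at IKZF3 and 24.3% at SPIB. Every window was built on a gene and its start, and windows around other genes were not analysed here. The contrast with the chromosomes therefore does not set these 6 genes apart from genes in general. The regions were wide. Their median width was 2899 bp, with quartiles at 1336 and 5753 bp, where the list had 1423 bp and quartiles at 919 and 2153 bp. Of the 41 regions, 17 were among the widest 10% of the list. Their fold enrichment, the authors' ratio of ChIP signal to expected background averaged over a region, was less set apart. Its median was 5.61 (3.51 to 7.57) against 4.92 (3.11 to 7.94), and 23 of the 41 lay above the median of the list. The plot of width and fold shows the members spread to the right of the list and not above it.

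**Figure D1:**
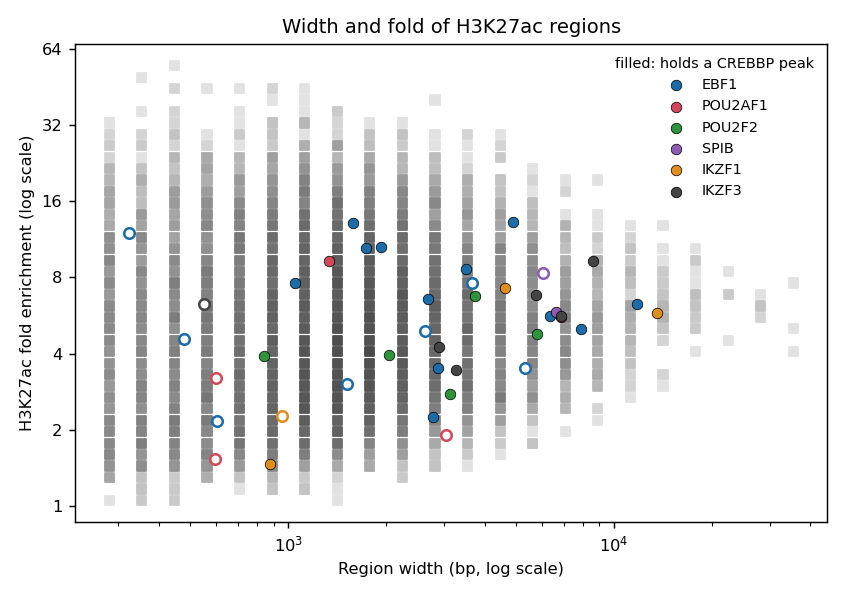
Width (bp) against the authors' fold enrichment, both on log scales, for the 41 H3K27ac regions at the 6 genes (circles) over the whole list (grey squares, darker with more regions). Filled circles hold a CREBBP peak. The members reach 13519 bp in width, while their highest fold is 13.2 and the list reaches 57.4.

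CREBBP peaks were found at 90.1 per Mb in the pooled windows against 71.0 over all chromosomes, and EBF1 alone gave 43 of the 87. The genes lay on both sides of the 7.10 per 100 kb of all chromosomes, with 4.73 at IKZF1, 5.76 at SPIB and 6.95 at POU2F2 below it and 9.69 at EBF1, 11.6 at IKZF3 and 14.9 at POU2AF1 above. A larger share of the member peaks than of the list lay in H3K27ac. Of the 87 peaks, 37 shared at least 1 bp with an H3K27ac region, 42.5% (exact Clopper-Pearson 95% interval 32.0 to 53.6%). Over the whole list the share was 5.06%. The windows also hold far more H3K27ac than the chromosomes do, as given above, and the part of this in the higher share was not tested. Seen from the mark, 28 of the 41 regions held a CREBBP peak, 68.3% (51.9 to 81.9%), where 49.0% of the list did. Among regions of the widest 10%, 14 of 17 held one, 82.4%, close to the 84.6% of such regions in the list. Among narrower regions the shares were 14 of 24, 58.3% (36.6 to 77.9%), and 45.0%. All these intervals reflect counting error alone, and peaks of 1 gene are not independent of each other.

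Strong CREBBP peaks were few. The deposited list has no limit on q and runs down to a −log10 p of 1.30, so most of its peaks are weak. In the windows 9 of 87 peaks had a q of at most 0.05, 10.3% (4.84 to 18.7%), against 1.81% of the list. They lay at EBF1 (4), IKZF3 (3), POU2AF1 (1) and POU2F2 (1), with none at SPIB or IKZF1. Of these 9 peaks 8 were in H3K27ac regions, 88.9% (51.8 to 99.7%), an interval that includes the 56.5% of such peaks in the list. They marked 8 of the 41 regions, 19.5% (8.82 to 34.9%), against 11.4% of the list, so the interval includes the list's share.

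**Figure D2:**
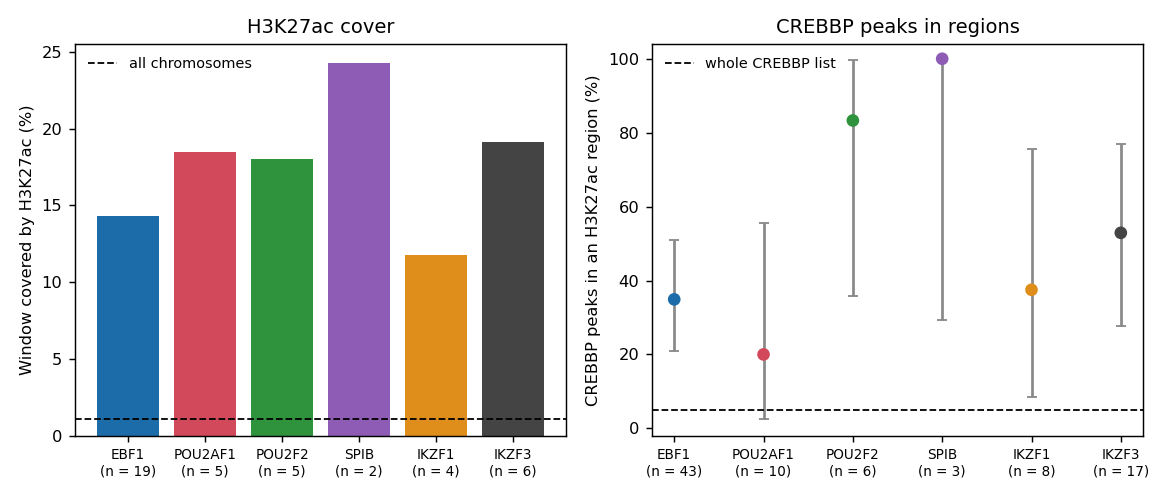
Left, percent of each gene's window covered by H3K27ac, with n the number of regions and the dashed line at 1.12% for all chromosomes. Right, percent of CREBBP peaks in an H3K27ac region with exact 95% intervals for counting error, n the number of peaks and the dashed line at 5.06% for the whole list. POU2AF1 is the only gene whose interval, 2.52 to 55.6%, reaches the dashed line.

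The start of every one of the 6 genes lay in a wide H3K27ac region. Widths were 5.32 kb at EBF1, 5.75 kb at IKZF3, 5.81 kb at POU2F2, 6.63 kb at SPIB, 6.89 kb at POU2AF1 and 13.5 kb at IKZF1. All 6 were among the widest 4.24% of the list. Their folds ran from 3.51 at EBF1 to 6.80 at IKZF3, on both sides of the list's median of 4.92. A CREBBP peak lay in 5 of these 6 regions. Of the widest 10% of regions in the list 84.6% held one, so this count does not set the starts apart. The exception was EBF1, whose nearest CREBBP peak was 8.30 kb into the gene. How many starts of other genes carry the mark was not analysed here, since the reference at hand is of another build.

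EBF1, the longest gene of the set, held the most intervals. Its window of 443.9 kb had 19 H3K27ac regions and 43 CREBBP peaks, and 15 of the regions lay wholly within the gene body. Per length it was not the densest, with 4.28 regions per 100 kb against 5.79 at POU2F2 and 7.44 at POU2AF1. The region over the start, chr5:158524461-158529775, had a fold of 3.51 and a −log10 q of 13.0, and a second region of 2.63 kb and fold 4.90 lay 4.42 kb before the start. Neither held a CREBBP peak. The mark at the start was thus weaker in fold than at most of the regions inside the gene.

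Inside EBF1 the highest folds were far from the start. The highest, 13.2, was in a region of 4.88 kb at chr5:158178345-158183224, 344 kb into the gene, and held 2 CREBBP peaks of −log10 q 0. A region of 1.58 kb at chr5:158437633-158439209, 87.6 kb into the gene, had a fold of 13.1 and the largest −log10 q of the 41 regions, 226. The widest, 11.7 kb at chr5:158301368-158313083, had a fold of 6.29 and held 2 CREBBP peaks. It was among the widest 0.498% of the list. The highest and the widest region of this gene were therefore not the same. The highest was itself wide, among the widest 5.16% of the list. The region of fold 12.0 at chr5:158351187-158351511 was only 325 bp wide and lay 9.08 kb from any CREBBP peak.

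The 4 EBF1 peaks of CREBBP with q of at most 0.05 did not sit on those high regions. The strongest, chr5:158239231-158239791, had a fold of 3.97 and a −log10 q of 8.07. It lay 287 kb into the gene in a region of 2.78 kb whose H3K27ac fold was 2.24, the second lowest of the gene's 19. The next, chr5:158121851-158123620, was the widest member peak at 1770 bp, with a fold of 3.62 and a −log10 q of 2.41. It covered the 3′ end of the gene together with an H3K27ac region of 1.05 kb and fold 7.63. Another, chr5:158284597-158285928, had a fold of 3.33 in a region of 6.38 kb. The last of the 4, chr5:158501350-158501998, had a fold of 3.91 and a −log10 q of 1.46. It was the only one of the 9 strong members outside H3K27ac, and it lay 24.8 kb into the gene.

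Of the 43 CREBBP peaks at EBF1, 15 lay in H3K27ac regions, 34.9% (21.0 to 50.9%). The remaining 28 lay a median of 8.48 kb from the nearest region (range 0.998 to 20 kb). Between 299 and 309 kb into the gene 5 peaks stood close together with no H3K27ac region among them, with folds from 2.69 to 3.27. The highest −log10 q among them was 0.714. The next peak, 310 kb into the gene and also outside H3K27ac, had a fold of 2.12 and a −log10 q of 0. This cluster and its limits were chosen after the values were seen.

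POU2F2 and POU2AF1, the octamer factor and its coactivator, each had a strong CREBBP peak at the 5′ part of the gene. At POU2F2 the peak chr19:42633458-42634179 had the largest fold (6.12) and the largest −log10 q (22.8) of the 87 members. It ranked 122 by −log10 p among the 215598 peaks. It lay 2.45 kb into the gene inside the H3K27ac region that covered the start, chr19:42632005-42637816, of fold 4.77. All 5 H3K27ac regions at POU2F2 held a CREBBP peak, and only 1 of its 6 peaks was elsewhere. The highest H3K27ac fold was 6.75, in a region of 3.73 kb at chr19:42617472-42621199, 15.4 kb into the gene. Its CREBBP peak had a fold of 1.62 and a −log10 q of 0.

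The region farthest from the POU2F2 start, chr19:42579136-42581166, lay beyond the 3′ end with a fold of 3.96. In the RefSeq order of GRCh38 the next protein-coding gene on that side is ZNF574, so this interval cannot be given to POU2F2 by position alone. It held a CREBBP peak of fold 1.88 and −log10 q 0.212.

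At POU2AF1 the CREBBP peak lay on the gene start itself. This peak, chr11:111249891-111250891, had a fold of 3.16 and a −log10 q of 7.14, with its summit 0.0120 kb before the start. The H3K27ac region around it, chr11:111247017-111253903, was the widest of the gene, with a fold of 5.60. Another 3 regions lay within the gene with folds of 3.19, 1.90 and 1.53, and none held a CREBBP peak. So the mark became lower from the start into this gene, and its lowest −log10 q, 1.61, was in the region farthest in, chr11:111235040-111235634. The highest fold, 9.30, was in a region 18.5 kb before the start, chr11:111268660-111269995, toward BTG4 in the RefSeq order. It held a CREBBP peak of fold 2.56 and −log10 q 0.212. Only 2 of the 10 CREBBP peaks of this window were in H3K27ac, the lowest share of the 6 genes (20%).

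SPIB, the shortest gene of the set, had wide H3K27ac at both ends. The region over its start, chr19:50917421-50924046, had a fold of 5.86, and the region over its 3′ end, chr19:50933549-50939580, a fold of 8.34. All 3 CREBBP peaks of the window fell in the first and none in the second, which lay 10.2 kb from the nearest peak. Peaks at chr19:50918684-50919062 and chr19:50922933-50923322 had folds of 2.06 and 2.01 and −log10 q of 1.21 and 1.22, just short of the limit of q. The peak on the start itself, chr19:50921754-50922229, had a fold of 1.39 and a −log10 q of 0. POLD1 precedes SPIB and MYBPC2 follows it in the RefSeq order, so part of both regions may belong to flanks shared with them, which was not tested.

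IKZF1 had the widest region of the set. It ran 13.5 kb from just before the start into the gene, chr7:50342946-50356464, with a fold of 5.80, and was number 59 of the list by width. A single CREBBP peak lay in it, chr7:50343008-50343563, which ended 0.116 kb before the start and had a fold of 2.13 and a −log10 q of 0.756. The rest of the gene body held 1 narrow region, chr7:50417773-50418647, whose fold of 1.46 was the lowest of the 41. It nevertheless held a CREBBP peak of fold 2.21. The highest fold, 7.29, was beyond the 3′ end in a region of 4.63 kb, chr7:50477009-50481635, with a CREBBP peak of fold 1.72. The CREBBP peak of largest −log10 p at IKZF1 was thus the one beside the start, at 4.28.

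IKZF3, like EBF1 and POU2F2, carried most of its H3K27ac away from its start. The region over the start, chr17:38016892-38022644, had a fold of 6.80 and held a CREBBP peak of 1.32 kb that lay 0.731 kb before the start, with a fold of 3.19 and a −log10 q of 1.35. The widest region and the one of highest fold were the same, 8.63 kb at chr17:37926572-37935200 with a fold of 9.32, which lay 85.2 kb into the gene. Its only CREBBP peak had a fold of 1.99 and a −log10 q of 0. The strongest CREBBP peak, chr17:37909869-37911455, lay beyond the 3′ end with a fold of 2.52 and a −log10 q of 4.29. It shared with 2 other peaks a region of 6.87 kb that covered the 3′ end, chr17:37909454-37916324, of fold 5.64. The last strong peak, chr17:37895556-37895949, had a fold of 3.10 and a −log10 q of 2.49. It lay beyond the 3′ end, on the side of GRB7, the next protein-coding gene in the RefSeq order. This peak therefore cannot be given to IKZF3 by position alone.

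**Figure D3:**
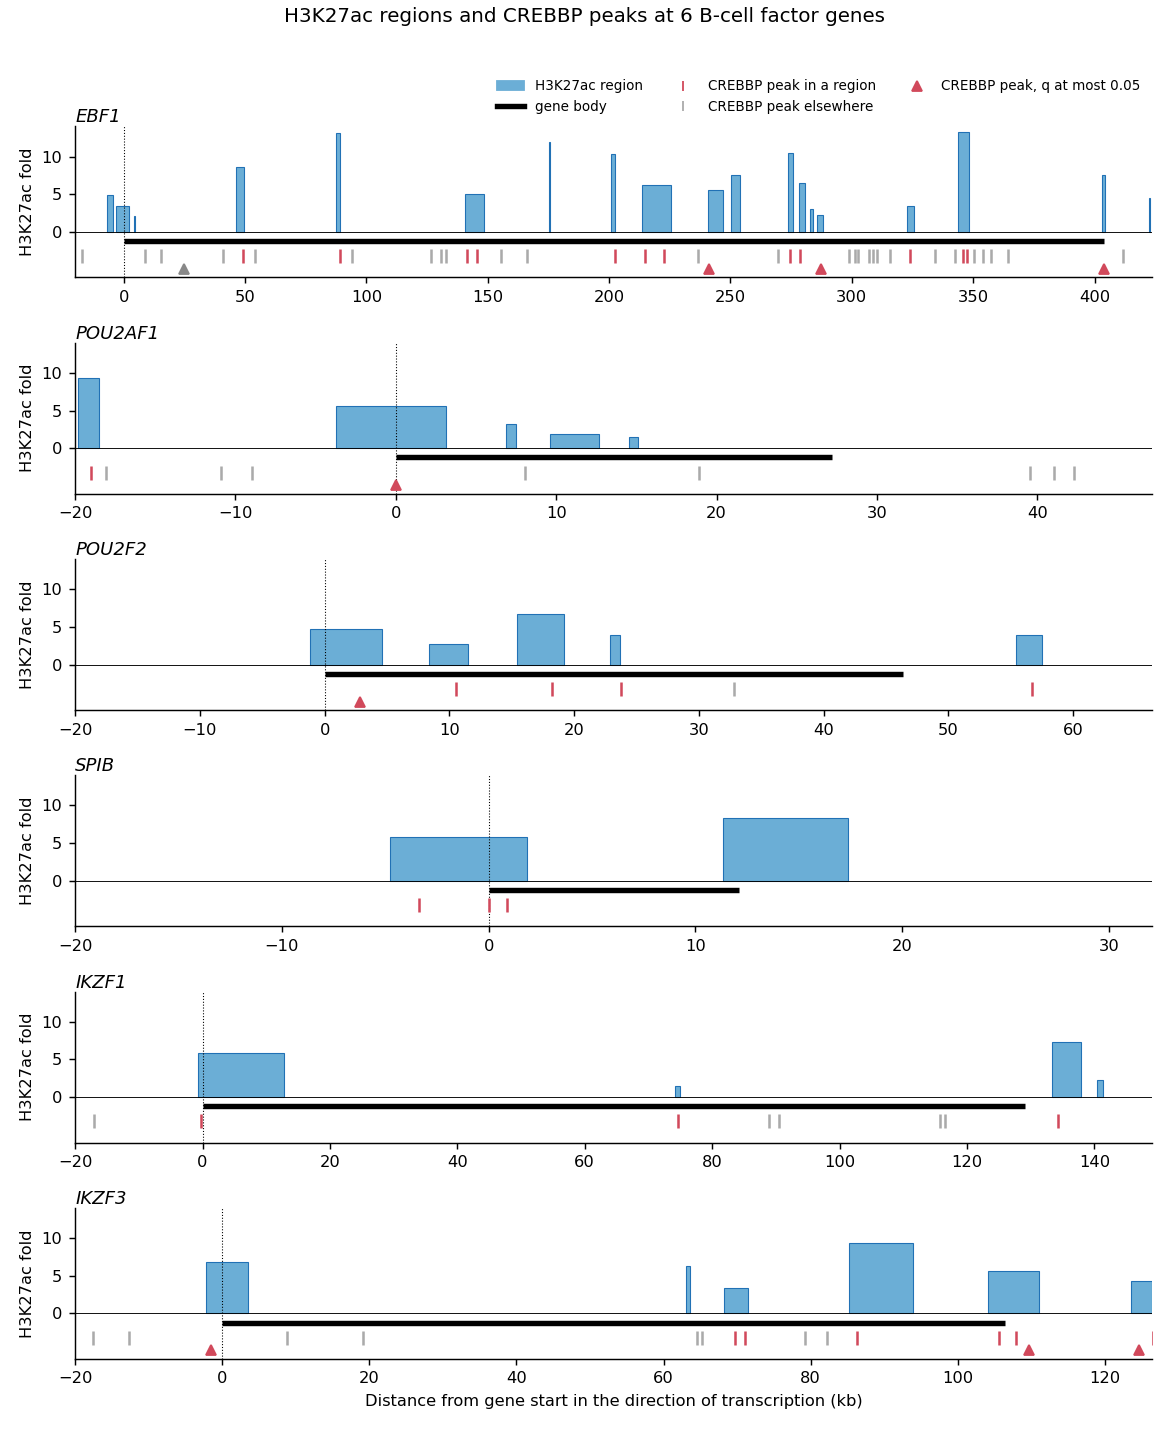
Maps of the 6 windows, with the distance from the gene start in kb along the direction of transcription. Blue blocks are H3K27ac regions drawn to width with their fold as height, and black bars are gene bodies. Triangles are summits of CREBBP peaks with q of at most 0.05, and ticks are summits of all other CREBBP peaks. Both are red in a region and grey elsewhere. A block stands over each of the 6 starts, and only at EBF1 does neither a tick nor a triangle lie beneath it.

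The genes differed in the mark at their 3′ ends. H3K27ac covered the 3′ end of EBF1, SPIB and IKZF3, and not that of POU2AF1, POU2F2 or IKZF1. CREBBP peaks lay in the region at the end of EBF1 (1 peak) and IKZF3 (3 peaks) but not in that of SPIB. Over the list 49.0% of regions held a CREBBP peak, and 84.6% of the widest 10%. How many ends of other genes carry the mark was not analysed here.

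Joining regions within 12.5 kb gave wide domains at all 6 genes. Of the 13232 domains of the list, the top 5% by covered length are 662 with at least 8.03 kb. The windows were overlapped by 24 domains, of which 10 were among these 662. EBF1 had 4 of the 10, POU2AF1 2, and the other genes 1 each. The largest was at the 3′ part of IKZF3, with 15.5 kb covered and rank 165. The largest at the others were 13.5 kb at POU2AF1, IKZF1 and POU2F2 (ranks 235, 236 and 237), 13.4 kb at EBF1 (rank 240) and 12.7 kb at SPIB (rank 276). The domain of rank 235 at POU2AF1 lay before the gene and ran past the window. The gene's own start lay in its other wide domain, of 11.1 kb and rank 365. At IKZF3 and IKZF1 the start stood in a region with no other within 12.5 kb.

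The strength of a CREBBP peak depends on the background it is set against. Taking fold as fragments plus 1 over background plus 1, and p as the upper Poisson tail, both numbers could be solved for all 87 member peaks, as values at the summit. Peaks in H3K27ac regions had a median of 14 fragments (quartiles 10.0 and 23) and a median background of 5.80 (quartiles 3.70 and 12.6). Peaks elsewhere in the windows had medians of 6 fragments (quartiles 5 and 7.75) and a background of 1.95 (quartiles 1.75 and 2.8). Fold was close in both, with medians of 2.25 and 2.34.

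The genes differed in the same way. The SPIB peaks had 21 to 40 fragments over backgrounds of 14.8 to 19.4, and their folds stayed at or under 2.06. At EBF1 the median was 7 fragments over 2.02, with a median fold of 2.47. A peak of 37 fragments at SPIB therefore missed the limit of q, while one of 9 fragments at EBF1, over a background of 1.56, passed it. The POU2F2 peak near the start had the most fragments of all members, 56 over 8.31. Next came the peaks at the 3′ side of IKZF3, with 48 over 18.5, and at the start of POU2AF1, with 46 over 13.9. The beginning of EBF1, with no peak called in its H3K27ac region, has no solved value, so its fragments are unknown.

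Since peaks on a higher background lie in H3K27ac more often throughout the list, shares were also set side by side at like background. At backgrounds of 2 to 3 fragments 7 of 23 member peaks were in regions, 30.4% (13.2 to 52.9%), against 5.66% of the list. From 3 to 5 the shares were 9 of 16, 56.2% (29.9 to 80.2%), and 26.2%. All 11 members from 5 to 10 were in regions (71.5 to 100%), and so were all 10 above (69.2 to 100%). The list had 75.3% and 88.7%, and both intervals include its share. Below 2 fragments no member was in a region. That was 0 of 4 at the commonest background, which by the exact interval allows up to 60.2%, where the list had 0.233%. From there to 2 fragments it was 0 of 23, which allows up to 14.8%, where the list had 0.927%. These low counts therefore do not set the members apart from the list. The windows are richer in H3K27ac than the chromosomes at large, and the part of this cover in these shares was not tested.

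**Figure D4:**
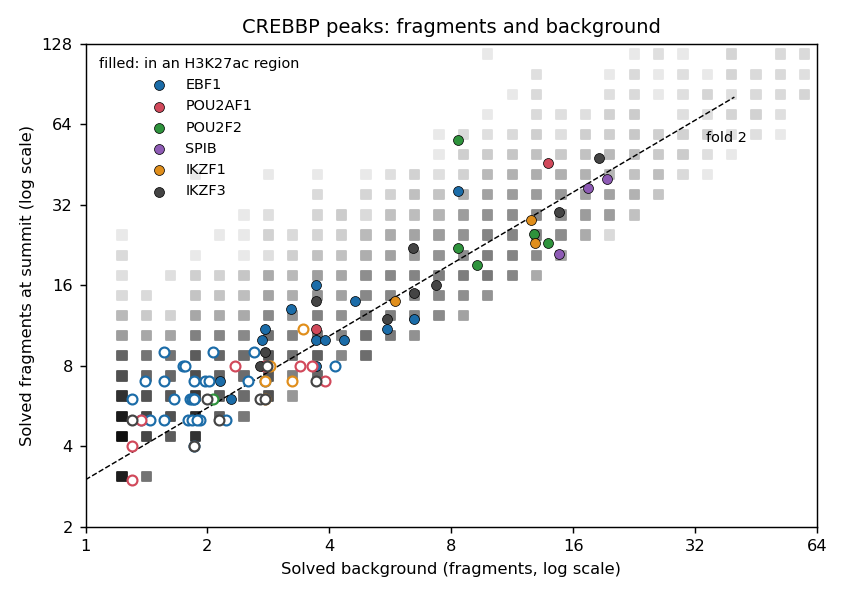
Solved background against solved fragments at the summit, both on log scales, for the 87 member CREBBP peaks (circles, filled in an H3K27ac region) over the whole list (grey squares, darker with more peaks, axes cut to the range of the members). The dashed line marks a fold of 2. SPIB peaks lie at the right end, at backgrounds of 14.8 to 19.4, and EBF1 peaks mostly at the left.

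The edge of 20 kb left some neighbours out. Closest was an H3K27ac region at chr7:50320836-50323018, 0.661 kb beyond the IKZF1 window on the side of the start, with a fold of 13.2 and a −log10 q of 340, above that of any of the 41 members. The nearest member region on that side, over the IKZF1 start, had 5.80 and 72.7. At IKZF3 a CREBBP peak of fold 2.04 crossed the far edge and the region of fold 4.26 began at it, and the next region out lay 6.87 kb away with a fold of 3.08. At POU2AF1 the region of fold 9.30 ended 0.162 kb inside the edge, and the next out, 9.94 kb beyond it, had a fold of 8.78. At POU2F2 the next region before the start lay 24.0 kb past the edge with a fold of 6.83. SPIB had its next regions 13.4 and 8.53 kb out, with folds of 5.57 and 3.85. EBF1 stood apart, with no further region within 87.8 kb.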

How the data were processed

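SC1 cells were profiled in 3 ChIP-seq samples, of which 2 have a peak list used here. The submitters' processing notes name MACS2, Bowtie2, STAR and fastp and the build hg19, with roles, versions, settings, control library and any pooling not given in the sources used here. The authors deposited, for each peak or region, a fold enrichment (a ratio), −log10 p, −log10 q and a score, and for CREBBP a summit. The score was not used. Library depth is unknown. Depth is approached only through the solved fragment numbers, which matched −log10 p within 0.001 for 99.99% of CREBBP peaks and are inferences.

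Chromosomes 1 to 22 and X were kept, and 128 CREBBP peaks and 17 H3K27ac regions on other sequences were dropped. Windows, overlaps of at least 1 bp and exact Clopper-Pearson 95% intervals were computed with scipy 1.17.1, pandas 2.3.3 and numpy 2.4.6 in Python 3.11.15. No test was run, because each group held 1 sample. Gene starts follow the strand of each gene. Exons and introns on hg19 were not analysed here. Named in each window were the H3K27ac region at the start, the widest, the highest and the one nearest the other end, CREBBP peaks of q at most 0.05, the strongest and the one nearest the start. Members, motifs and rules were chosen with earlier results of these data known. Overlap and fragment code was tested on simulated data, with 1000 of 1000 intervals and 935 of 935 peaks right. The simulated intervals lay wholly inside or wholly outside regions, so partial overlaps were not covered. The simulated peaks were made with the same formula that was solved, so they check the code and not the formula. Alternatives changed the overlap, the lists, the window and the limit of q.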

Additional observations from a re-analysis of the deposited data

How the results depend on the processing

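The share of CREBBP peaks in H3K27ac regions, 42.5%, stayed within its interval under the 50% overlap, the summit, the upper 50% of either list and the gene body alone, between 32.2% and 50%. It was also 50% without EBF1, an alternative chosen after seeing the data. With the 9 peaks of q at most 0.05, also added later, it was 88.9%. The share of regions holding a CREBBP peak, 68.3%, was 83.3% when H3K27ac regions were held to the upper 50% and 19.5% with CREBBP peaks of q at most 0.05, by construction fewer peaks. The share of CREBBP peaks with q of at most 0.05, 10.3%, was 6.9% at a q of 0.01 and 11.4% without EBF1. The count fell from 9 to 6 at a q of 0.01 and with the gene body alone. H3K27ac cover fell with the gene body alone from 12.5 to 7.38 kb at POU2AF1, from 12.7 to 2.61 kb at SPIB and from 28.0 to 18.4 kb at IKZF3. With the upper 50% of regions it fell from 63.5 to 41.0 kb at EBF1, from 12.5 to 8.22 kb at POU2AF1 and from 15.5 to 9.54 kb at POU2F2. Fewer regions enter under these settings. No paired analysis was possible because there was 1 sample per group. With no counts of reads, weak peaks cannot be told from noise beyond the authors' q.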
